A study of Mus musculus with 6 samples.

Results

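The 48 nuclear genes named as subunits of complexes II to V of oxidative phosphorylation were followed in haematopoietic stem cells (HSCs) of control and MaeaCsf1r-Cre mice. They are every gene symbol of the deposited table that begins with Uqcr, Cox4 to Cox8 or Atp5, together with Sdha, Sdhb, Sdhc, Sdhd and Cyc1, with 4 pseudogene rows left out, and make up 48 of 46959 rows. Complex II has 4 of these genes, complex III 9, complex IV 18 and complex V 17. All groups are bone marrow HSCs of adult mice, given as 8 weeks old in the series design, with a wider range of ages in the study's methods. The control animals were littermates, and the labels give their genotype only as control. In MaeaCsf1r-Cre animals a Cre transgene driven by Csf1r, a gene of macrophages and their precursors, deletes floxed Maea, which encodes a component of an E3 ubiquitin ligase, so the deletion is not limited to HSCs. There were 3 libraries in each group, each made from about 2000 sorted lineage- Sca-1+ c-Kit+ CD150+ CD48- cells pooled from 2 mice.

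Complex II (succinate dehydrogenase) passes electrons from succinate to ubiquinone and is also an enzyme of the citric acid cycle. Complex III passes them on to cytochrome c, complex IV (cytochrome c oxidase) hands them to oxygen, and complex V (ATP synthase) uses the proton gradient built along the chain to make ATP. Complex II is encoded by nuclear genes throughout, whereas the others also hold subunits encoded in mitochondrial DNA. Quiescent HSCs are known for a low use of oxidative phosphorylation compared with their dividing progeny, and cytochrome c oxidase has isoform genes whose use differs between tissues.

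Maea itself stood at 108, 116 and 123 CPM (reads of a gene scaled to a common library total) in control and at 76.9, 88.6 and 101 CPM in MaeaCsf1r-Cre replicates 1, 2 and 3, lower in each MaeaCsf1r-Cre library than in any control library. Of the 12955 genes tested 785 were lower in this way. The log2 fold change of Maea was -0.39. Its adjusted p was 0.967 from limma and 0.218 from limma with the replicate number as a block, so it was not called. The CPM were scaled to between 32966000 and 39611000 reads in control and between 44156000 and 60936000 reads in MaeaCsf1r-Cre libraries, as the steps between low values show, with MaeaCsf1r-Cre replicate 1 the deepest. At these depths 3 reads correspond to 0.0492 to 0.0910 CPM, a floor that allows for counting error alone. Below, values by library are given in the order of replicates 1, 2 and 3. The 6 HSC markers checked were detected in both groups and summed to between 763 and 1098 CPM in control and between 546 and 895 CPM in MaeaCsf1r-Cre libraries. Kit, Procr, Mecom and Hlf had log2 fold changes of -0.38, -0.55, -0.55 and -0.78, and Ly6a and Slamf1 of 0.23 and 0.18. The smallest adjusted p of these markers was 0.967 from limma and 0.198 with the block. Cd48, which the sort selects against, was between 12.4 and 46.5 CPM. The 8 macrophage markers summed to 15.2 to 65.8 CPM in control and 1.12 to 42.2 CPM in MaeaCsf1r-Cre libraries. Among the 6 of these markers that were tested, C1qa, C1qb, C1qc and Csf1r were lower in each MaeaCsf1r-Cre library than in any control library. Of the 12955 genes tested 785 were so, as given above for Maea. Mrc1 and Vcam1 overlapped between groups, and both were highest in MaeaCsf1r-Cre replicate 3. Of the markers not tested, Cd5l was lower without overlap and Adgre1 overlapped. C1qb was at 8.98, 3.79 and 5.37 CPM in control and at 0.0329, 0 and 0.474 CPM in MaeaCsf1r-Cre HSCs, the 6 macrophage markers tested had log2 fold changes below 0, and their smallest adjusted p was 0.194 from limma and 0.0615 with the block. The 6 B cell markers summed to 33.3 to 55.0 and 13.3 to 26.4 CPM, without overlap and with Pax5 at 0, the 6 neutrophil markers to 27.7 to 219 and 4.51 to 114 CPM, and the 6 erythroid markers to 156 to 436 and 186 to 383 CPM. Their part in the members' values was not tested. The 13 genes encoded in mitochondrial DNA were listed at 0 in each of the 6 libraries, so only the nuclear share of these complexes can be read here.

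The HSCs carried mainly the ubiquitous forms of the subunits, with Cox6b2, an isoform known from testis, as an exception at 19.6 to 41.9 CPM. Of the 48 members 43 had at least 1 CPM in 3 or more libraries and were tested, 13 of the 18 in complex IV and all in the other complexes. The remaining 5 were Cox6a2, Cox7a1, Cox7b2, Cox8b and Cox8c, isoforms known from heart, skeletal muscle or testis, with at most 0.177 CPM in any library. The members together took 8870.3, 6949 and 7931 CPM in control and 10108, 7443 and 8348 CPM in MaeaCsf1r-Cre replicates 1, 2 and 3. The groups overlapped, and replicate 1 was the highest and replicate 2 the lowest library within each group. In such pooled samples fewer cells with a high level and less RNA in each cell cannot be told apart.

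**Figure D1:**
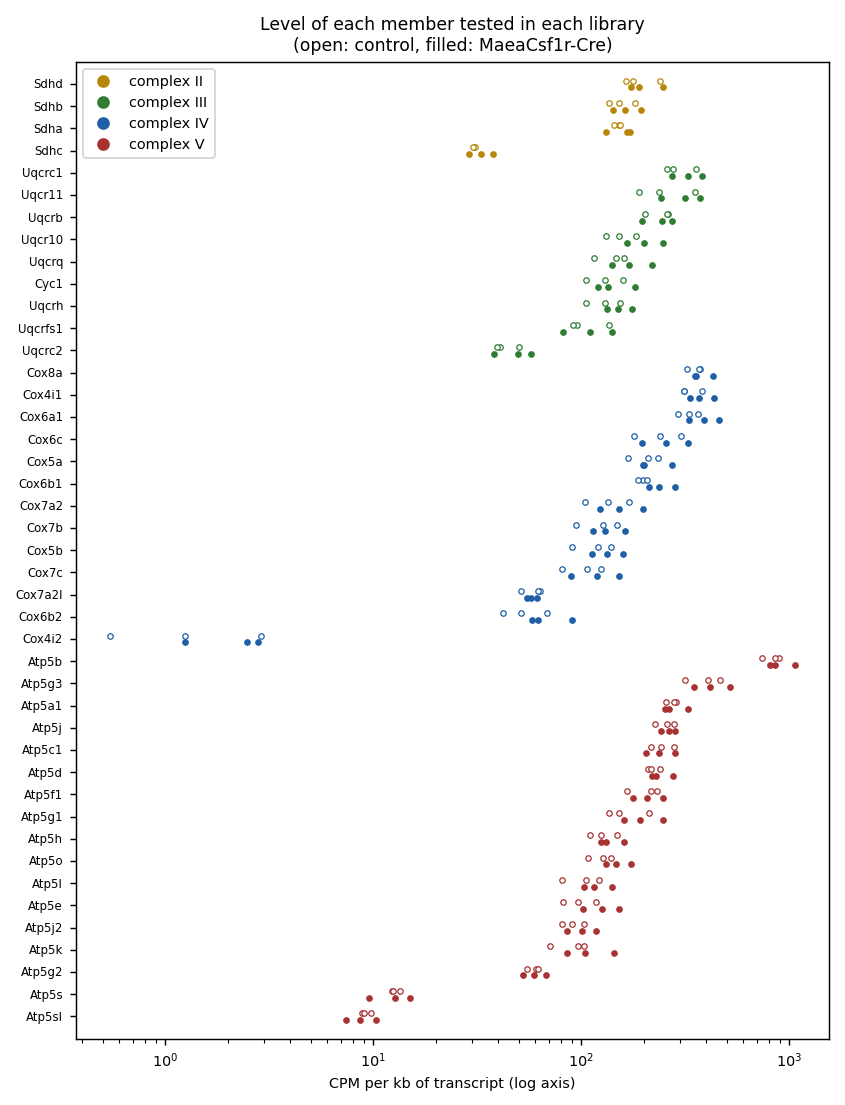
Level of each of the 43 members tested, in CPM per kb of transcript on a log axis, with genes grouped by complex and ordered by their control mean. Open points are the 3 control and filled points the 3 MaeaCsf1r-Cre libraries. Atp5b lies highest at 828 ± 79.1 CPM per kb in control (SD, n = 3), Cox4i2 lies lowest, and the points of the groups overlap for each gene except Cox6b1.

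Levels were compared between genes per kb of transcript, and all values of this paragraph are CPM per kb in control HSCs (mean ± SD, n = 3). In complex II the membrane anchor Sdhd was at 194 ± 40.7, the iron-sulphur subunit Sdhb at 157 ± 23.3 and the catalytic flavoprotein Sdha at 150.2 ± 5.65, which their spread does not separate, and the other anchor Sdhc was lower at 30.6 ± 0.288. In complex III the core protein Uqcrc1 was highest at 296 ± 51.5, followed by the small subunits Uqcr11 at 259.9 ± 85.0 and Uqcrb at 241 ± 33.7, with overlapping spreads, and the other core protein, Uqcrc2, was lowest at 43.4 ± 5.84. In complex IV Cox8a at 355 ± 27.4, Cox4i1 at 335 ± 40.8 and Cox6a1 at 330.3 ± 37.0 led and overlapped. In complex V the catalytic beta subunit Atp5b stood apart at 828 ± 79.1, above Atp5g3, a gene of the membrane ring, at 397 ± 74.0 and the alpha subunit Atp5a1 at 273 ± 15.4, although alpha and beta subunits are paired in the enzyme. Atp5s at 12.7 ± 0.620 and Atp5sl at 9.22 ± 0.529 were the lowest under that prefix. The length of a gene's transcript is a choice. Atp5b stayed the highest gene of complex V, Sdhc the lowest of complex II and Cox4i2 the lowest of complex IV with the longest and with the median transcript length. Other places moved with it. The highest gene became Sdha in complex II and Cox4i1 in complex IV with the median length, and Uqcrb in complex III with the longest. The lowest became Uqcrq in complex III and Atp5l in complex V with the longest length, and Uqcrfs1 in complex III with the median.

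MaeaCsf1r-Cre against control was compared to ask whether nuclear transcripts of the respiratory chain and the synthase differ in HSCs of mice with the deletion. Most members were slightly higher in MaeaCsf1r-Cre HSCs, and for no single gene was the difference larger than the spread between libraries allows to call. On log2(CPM + 1), 38 of the 43 members had a log2 fold change above 0, against 39.1% of the 12955 genes tested. The members' median log2 fold change was 0.14, with values from -0.081 to 0.38, and that of all genes tested was -0.058. By complex the median was 0.079 for the 4 genes of complex II, 0.14 for the 9 of complex III, 0.19 for the 13 of complex IV and 0.12 for the 17 of complex V. With limma's moderated test and Benjamini-Hochberg adjustment over all genes tested, 0 of 43 members had an adjusted p under 0.05, where 0.00772% of all genes did (1 gene, BC023719), and the smallest adjusted p of a member was 0.967. At an unadjusted p under 0.05 there were 0 members, against 3.99% of all genes. The share of all genes above 0 depended on the scaling. It was 47.7% with median ratios and 53.1% with quantile normalization, where 41 of 43 members were above 0 in each case.

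Since libraries of the same replicate number deviated together, a second fit took the replicate number as a block. This pairing was read from these same values and not from a label. Again 0 members had an adjusted p under 0.05, as did 0.00772% of all genes, and the smallest was 0.218 (limma with the block). At an unadjusted p under 0.05 there were then 13 of 43 members, all higher in MaeaCsf1r-Cre HSCs. Of the 12955 genes tested 403 were higher with such a p, and 13.9% had it in either direction. The 13 members were Uqcr10, Uqcr11, Uqcrh and Uqcrq of complex III, Cox5b, Cox6a1, Cox6b1, Cox6b2 and Cox7a2 of complex IV, and Atp5e, Atp5g1, Atp5k and Atp5o of complex V. Within same-numbered pairs 28 of 43 members were higher in MaeaCsf1r-Cre HSCs in 3 of 3 pairs, against 13.2% of all genes. In 0 of 3 pairs higher were 0 members, against 3042 of the 12955 genes tested. Without regard to pairs, the groups did not overlap for 1 of 43 members, against 2.49% of all genes that were higher in this way.

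**Figure D2:**
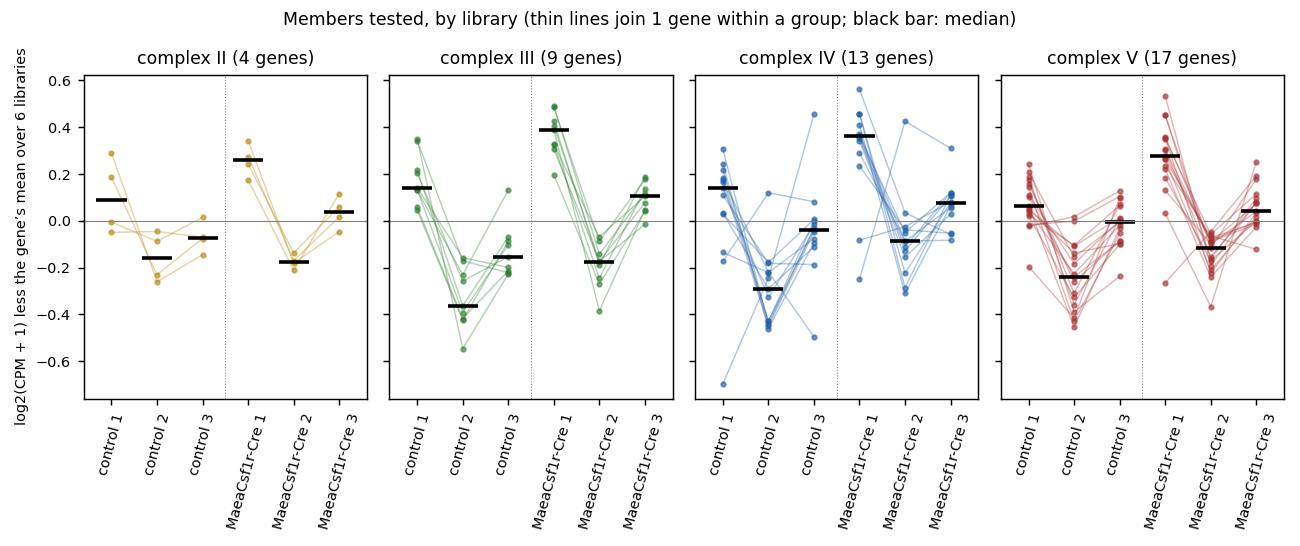
Deviation of each member tested from its own mean over the 6 libraries on log2(CPM + 1), by complex and library, with a black bar at the median and thin lines joining 1 gene within a group. In the 4 complexes the medians of replicate 1 are the highest and those of replicate 2 the lowest within each group, and the medians of all members run from -0.26 in control replicate 2 to 0.33 in MaeaCsf1r-Cre replicate 1.

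The members differed between libraries of 1 genotype as much as between genotypes, and they did so together. Their median deviation from each gene's mean, on log2(CPM + 1), was 0.13, -0.26 and -0.054 in the control libraries and 0.33, -0.14 and 0.074 in the MaeaCsf1r-Cre libraries, while over all genes tested it stayed between -0.11 and 0.060. MaeaCsf1r-Cre replicate 1 was the highest of the 6 libraries for 39 of 43 members, and for 3294 of the 12955 genes tested, and control replicate 2 the lowest for 29 members and for 2155 of all genes. For 41 of 43 members, as for 11454 of all genes, the range over the 3 control libraries exceeded the difference between the group means. Leaving out 1 library breaks its same-numbered pair, and the median then fell most without control replicate 2 or MaeaCsf1r-Cre replicate 1. The members' median log2 fold change was 0.037, with 28 of 43 above 0, when control replicate 2 was left out, and 0.018, with 28 of 43 above 0, when MaeaCsf1r-Cre replicate 1 was left out. It was 0.24 without control replicate 1 and 0.26 without MaeaCsf1r-Cre replicate 2. Leaving out both libraries of a replicate number, which keeps the other pairs whole, gave 0.12, 0.15 and 0.15 for numbers 1, 2 and 3. With all 6 libraries it was 0.14. Markers of cell identity also set replicate 1 apart. The erythroid transcription factor Klf1 was at 319, 119 and 94.0 CPM in control and 331, 122 and 202 CPM in MaeaCsf1r-Cre replicates 1, 2 and 3, and the HSC transcription factor Hlf, chosen like Klf1 after its values were seen, at 90.6, 203 and 127 and at 41.5, 78.6 and 139 CPM. Klf1 was thus highest and Hlf lowest in replicate 1 of each group, and the part of such differences in cell make-up in the members' values was not tested.

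In complex II the 4 log2 fold changes lay between 0.052 and 0.11. Sdhc (chr1:171127165-171150603 of GRCm38), a haem-binding membrane anchor, was at 97.3, 97.5 and 95.8 CPM in control HSCs against 119, 91.4 and 105 CPM in MaeaCsf1r-Cre HSCs, and the groups overlapped since MaeaCsf1r-Cre replicate 2 lay under the control libraries. The fit gave a log2 fold change of 0.11 ± 0.13 (SE, limma's adjusted p = 0.967). Sdhb (chr4:140961203-140979193), which carries the iron-sulphur clusters, was at 208, 156 and 174 CPM in control HSCs against 222, 162 and 185 CPM in MaeaCsf1r-Cre HSCs. It was a little higher in 3 of 3 pairs, with a log2 fold change of 0.080 ± 0.16 (SE). Sdhd (chr9:50596357-50603812) was at 295, 201 and 218 CPM in control HSCs against 306, 213 and 234 CPM in MaeaCsf1r-Cre HSCs, where the step from replicate 1 to replicate 2 within each group exceeded the difference between groups. The 95% intervals of the log2 fold change were -0.26 to 0.36 for Sdha, -0.29 to 0.45 for Sdhb, -0.19 to 0.41 for Sdhc and -0.36 to 0.52 for Sdhd. Without MaeaCsf1r-Cre replicate 1 the median of complex II was -0.029, with the sign turned.

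On log2(CPM + 1), complex III held the member with the largest log2 fold change, Uqcr10 (chr11:4701973-4704342), which encodes a small membrane subunit. It was at 79.9, 57.1 and 66.0 CPM in control HSCs against 108, 72.1 and 86.8 CPM in MaeaCsf1r-Cre HSCs. In 3 of 3 pairs the MaeaCsf1r-Cre library was higher, and the groups overlapped through control replicate 1 and MaeaCsf1r-Cre replicate 2. The mean was 67.7 ± 11.5 CPM in control and 88.9 ± 17.9 CPM in MaeaCsf1r-Cre HSCs (SD, n = 3 each). The fit gave a log2 fold change of 0.38 ± 0.19 (SE, limma's adjusted p = 0.967), and the block brought its adjusted p to 0.218. Its first place is not firm. Cox4i2, near 1 CPM, was above it at a pseudocount of 0.1 (0.63 against 0.39) and, with Cox6b2, under quantile normalization (0.58 and 0.43 against 0.40), and leaving out a library put Cox6b2, Cox4i2 or Atp5e first in 5 of 6 cases. Uqcrq (chr11:53427922-53430831), a small subunit that contacts cytochrome b, was at 65.1, 46.7 and 59.4 CPM in control HSCs against 89.2, 57.1 and 68.5 CPM in MaeaCsf1r-Cre HSCs. It too was higher in 3 of 3 pairs, with a log2 fold change of 0.31 ± 0.20 (SE). Uqcrc1 (chr9:108936633-108949623), a core protein, was at 586, 426 and 458 CPM in control HSCs against 629.6, 451 and 537 CPM in MaeaCsf1r-Cre HSCs. The difference had 1 direction in 3 of 3 pairs but was less than the spread within each group, with a log2 fold change of 0.14 ± 0.17 (SE). The remaining small subunits Uqcr11 and Uqcrh, the hinge protein, had log2 fold changes of 0.28 ± 0.25 and 0.24 ± 0.17. Of the electron carriers, the cytochrome Cyc1 had 0.14 ± 0.20 and the Rieske iron-sulphur protein Uqcrfs1 0.033 ± 0.23. The core protein Uqcrc2 had 0.14 ± 0.18 and the small subunit Uqcrb, the only gene of complex III below 0, had -0.022 ± 0.16.

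**Figure D3:**
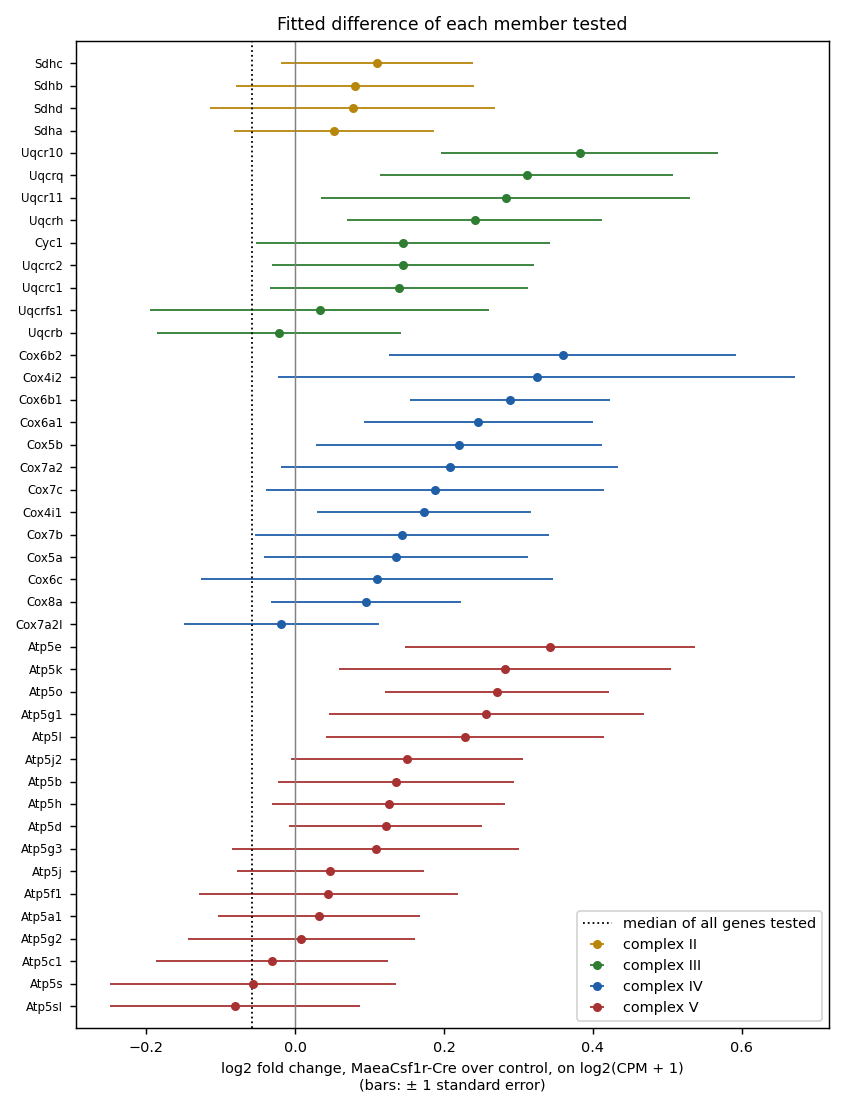
Log2 fold change of each member tested, MaeaCsf1r-Cre over control on log2(CPM + 1), with bars of 1 standard error, grouped by complex, and a dotted line at the median of all genes tested, -0.058. Of the 43 points 38 lie above 0, Uqcr10 lies highest at 0.38 and Atp5sl lowest at -0.081, and 0 of them had an adjusted p under 0.05.

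In complex IV, Cox6b1 (chr7:30616861-30626151) was the member whose groups did not overlap. It encodes a subunit on the intermembrane side of the enzyme, where the monomers of its dimer meet. It was at 123, 116 and 128 CPM in control HSCs against 174, 130.5 and 147 CPM in MaeaCsf1r-Cre HSCs. The lowest MaeaCsf1r-Cre library was thus just above the highest control library, and the mean was 122 ± 6.25 CPM in control and 151 ± 22.0 CPM in MaeaCsf1r-Cre HSCs (SD, n = 3 each). The fit gave a log2 fold change of 0.29 ± 0.13 (SE, limma's adjusted p = 0.967), and limma with the block an adjusted p of 0.281. Cox6a1 (chr5:115345642-115348981), the ubiquitous form of a regulatory subunit, was at 209, 167 and 189 CPM in control HSCs against 263, 189 and 222 CPM in MaeaCsf1r-Cre HSCs. In 3 of 3 pairs the MaeaCsf1r-Cre library was higher, with overlap between groups and a log2 fold change of 0.25 ± 0.15 (SE). Cox8a (chr19:7215153-7217616), the highest of the complex per kb at the length used here, was at 205, 178 and 202 CPM in control HSCs against 237, 196 and 194 CPM in MaeaCsf1r-Cre HSCs. In replicate 3 the control library was the higher, and its log2 fold change was 0.095 ± 0.13 (SE). The other ubiquitous subunits lay between, with log2 fold changes of 0.14 ± 0.18 for Cox5a, 0.22 ± 0.19 for Cox5b, 0.11 ± 0.24 for Cox6c and 0.19 ± 0.23 for Cox7c.

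The isoform families of complex IV and of the ring of complex V were followed next, since their members replace each other in the enzyme. Cox4i1 (chr8:120668222-120674207) was at 285, 232 and 231 CPM in control HSCs against 323, 248 and 274 CPM in MaeaCsf1r-Cre HSCs, higher in 3 of 3 pairs. Cox4i2 (chr2:152754173-152765037), the isoform known from lung and from low oxygen, was at 0.394, 0.909 and 2.10 CPM in control HSCs against 0.903, 2.04 and 1.80 CPM in MaeaCsf1r-Cre HSCs, at most 0.923% of the family per kb. Its log2 fold change of 0.32 ± 0.35 (SE) rests on values near 1 CPM, with the groups overlapping widely. Cox6a2, Cox7b2 and Cox8b, forms known from muscle or testis, had a value above 0 in 1 library each, of 0.0253, 0.0454 and 0.0227 CPM, under what 3 reads would give, and Cox8c was listed at 0 in the 6 libraries. Cox7b, whose partner Cox7b2 this is, was at 149, 94.6 and 128 CPM in control HSCs against 162, 115 and 130.4 CPM in MaeaCsf1r-Cre HSCs. Its log2 fold change was 0.14 ± 0.20 (SE), with 3 of 3 pairs higher in MaeaCsf1r-Cre HSCs.

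Cox6b2 (chr7:4751792-4753094) was the exception among the tissue-restricted forms. This isoform of Cox6b1, known from testis, was at 31.8, 24.0 and 19.6 CPM in control HSCs against 41.9, 28.8 and 26.9 CPM in MaeaCsf1r-Cre HSCs, and its 6 values lay within 0.15 of a whole number of reads. It was higher in 3 of 3 pairs, with overlap between groups and a log2 fold change of 0.36 ± 0.23 (SE). Per kb it made up 21.4% ± 4.35 in control and 22.2% ± 2.38 in MaeaCsf1r-Cre HSCs (SD, n = 3 each) of the sum of Cox6b1 and Cox6b2. The share ran from 16.9% in control replicate 3 to 25.6% in control replicate 1, and the groups overlapped, so that the make-up of this pair was not seen to differ. With the median transcript length its share in control was 13.7%.

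**Figure D4:**
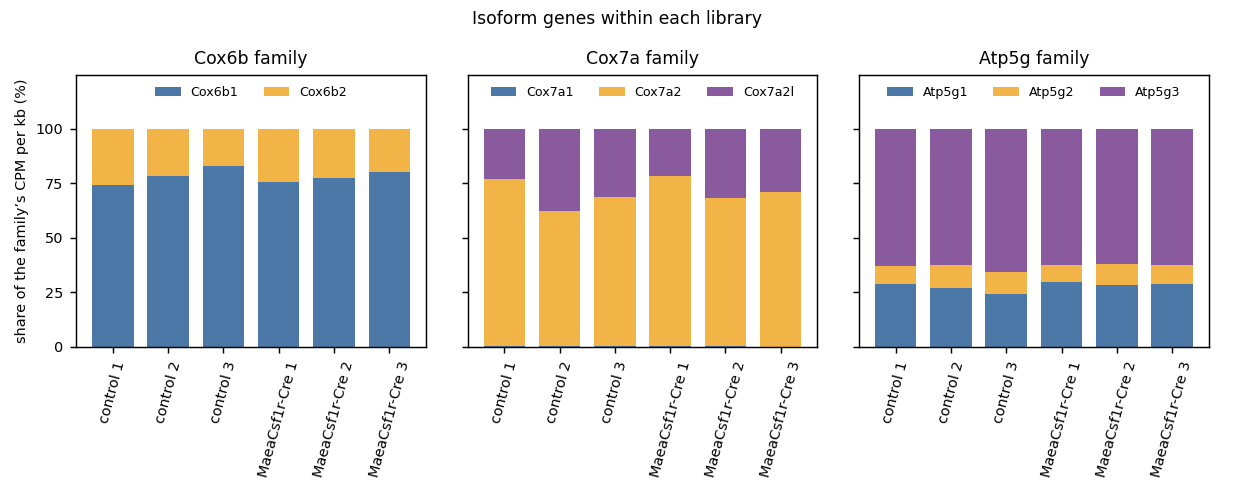
Share of each isoform gene in the summed CPM per kb of its family (%), in each of the 6 libraries, for Cox6b, Cox7a and Atp5g. Cox6b2 takes 16.9 to 25.6% of its family, Cox7a2l 21.7 to 37.7% and Atp5g3 62.1 to 65.7%.

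In the Cox7a family, the muscle form Cox7a1 (chr7:30184144-30186078) was at 0.152, 0.177 and 0.0877 CPM in control HSCs against 0.0986, 0.0907 and 0.0678 CPM in MaeaCsf1r-Cre HSCs, or at most 0.268% of the family per kb. Cox7a2 (chr9:79755361-79759878), the form of most tissues, was at 113, 68.6 and 88.7 CPM in control HSCs against 131, 81.0 and 100.2 CPM in MaeaCsf1r-Cre HSCs, and Cox7a2l (chr17:83501918-83517330), which joins complexes III and IV into supercomplexes and is no subunit of the free oxidase, at 55.5, 68.3 and 66.4 CPM in control HSCs against 59.2, 61.7 and 66.4 CPM in MaeaCsf1r-Cre HSCs. Cox7a2 was higher in 3 of 3 pairs, with a log2 fold change of 0.21 ± 0.23 (SE), and Cox7a2l had -0.019 ± 0.13. Cox7a2l did not follow the libraries as the subunits did. It was lowest in replicate 1 of each group, where Cox7a2 was highest, and its share per kb ran from 21.7% in MaeaCsf1r-Cre replicate 1 to 37.7% in control replicate 2, a wider range than the difference between 30.8% ± 7.31 in control and 27.4% ± 5.17 in MaeaCsf1r-Cre HSCs (SD, n = 3 each).

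The membrane ring of complex V is made of identical subunits that come from Atp5g1, Atp5g2 or Atp5g3, whose mature products are the same while their import sequences differ. Atp5g3 (chr2:73908447-73911326) was at 331, 226 and 292 CPM in control HSCs against 371, 248 and 297 CPM in MaeaCsf1r-Cre HSCs. Atp5g1 (chr11:96068852-96075670), known to follow the growth state of cells, was at 127, 81.4 and 90.6 CPM in control HSCs against 147, 95.4 and 114 CPM in MaeaCsf1r-Cre HSCs, and Atp5g2 (chr15:102662864-102672352) at 26.6, 24.2 and 27.4 CPM in control HSCs against 29.8, 23.1 and 26.1 CPM in MaeaCsf1r-Cre HSCs. Per kb Atp5g3 supplied 63.6% ± 1.77 in control and 62.3% ± 0.154 in MaeaCsf1r-Cre HSCs, Atp5g1 26.7% ± 2.25 in control and 28.9% ± 0.506 in MaeaCsf1r-Cre HSCs and Atp5g2 9.66% ± 1.32 in control and 8.78% ± 0.623 in MaeaCsf1r-Cre HSCs (SD, n = 3 each), with the groups overlapping in each case. These shares depend on the transcript length, above all for Atp5g1, whose share in control was 5.47% with the longest and 8.37% with the median length, below the 9.15% and 8.75% of Atp5g2, while Atp5g3 stayed first with 85.4% and 82.9%. Their log2 fold changes were 0.26 ± 0.21 for Atp5g1, 0.0085 ± 0.15 for Atp5g2 and 0.11 ± 0.19 for Atp5g3 (SE).

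The rest of complex V was read by its parts, the catalytic head with its shaft, the stalk and the membrane part. Atp5b (chr10:128083273-128090391) was at 1707, 1416 and 1635 CPM in control HSCs against 2048, 1558 and 1639.9 CPM in MaeaCsf1r-Cre HSCs. It was higher in 3 of 3 pairs, in replicate 3 by little, and had a log2 fold change of 0.14 ± 0.16 (SE). Atp5c1 (chr2:10056016-10080510), the gamma shaft that turns within the head, was at 326, 253 and 281 CPM in control HSCs against 329, 239 and 277 CPM in MaeaCsf1r-Cre HSCs. It was lower in 2 of 3 pairs, with -0.031 ± 0.16. The alpha subunit Atp5a1 had 0.032 ± 0.14 and the delta subunit Atp5d 0.12 ± 0.13. Atp5e (chr2:174461072-174464105), the epsilon subunit at the foot of the shaft, had the largest log2 fold change of the complex on log2(CPM + 1), though not without control replicate 1, and was at 40.5, 34.6 and 49.9 CPM in control HSCs against 64.0, 42.8 and 52.8 CPM in MaeaCsf1r-Cre HSCs. The groups overlapped although it was higher in 3 of 3 pairs, and the fit gave a log2 fold change of 0.34 ± 0.19 (SE, limma's adjusted p = 0.967). In the stalk that holds the head, Atp5o (chr16:91925214-91931687), the oligomycin sensitivity protein, was at 116, 90.9 and 107 CPM in control HSCs against 146, 109.8 and 124 CPM in MaeaCsf1r-Cre HSCs. It was higher in 3 of 3 pairs, and only control replicate 1 lay above a MaeaCsf1r-Cre library, with a log2 fold change of 0.27 ± 0.15 (SE). The other stalk genes had 0.045 ± 0.17 (Atp5f1), 0.13 ± 0.16 (Atp5h) and 0.047 ± 0.13 (Atp5j), and the small membrane subunits 0.15 ± 0.16 (Atp5j2), 0.28 ± 0.22 (Atp5k) and 0.23 ± 0.19 (Atp5l).

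The lowest log2 fold changes belonged in part to genes that share the prefix without being subunits. Atp5s (chr12:69724950-69744660), a coupling factor of the synthase, was at 18.3, 18.5 and 19.98 CPM in control HSCs against 19.0, 14.1 and 22.2 CPM in MaeaCsf1r-Cre HSCs. Atp5sl (chr7:25619414-25625551), now named Dmac2 for its part in the assembly of complex I, was at 21.0, 21.6 and 23.4 CPM in control HSCs against 17.6, 20.7 and 24.5 CPM in MaeaCsf1r-Cre HSCs. Neither was separated by group, and their log2 fold changes were -0.056 ± 0.19 and -0.081 ± 0.17 (SE). Atp5s, Atp5sl and Cox7a2l, grouped by role after their values were seen, were 3 of the 5 members below 0, next to Uqcrb and Atp5c1. Among the other 40 members tested 38 were above 0, with a median of 0.14. The signs of these small values depend on the scaling. With median ratios Atp5c1 had 0.019 and Cox7a2l 0.031, and with quantile normalization Atp5s had 0.040 and Atp5sl 0.019.

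**Figure D5:**
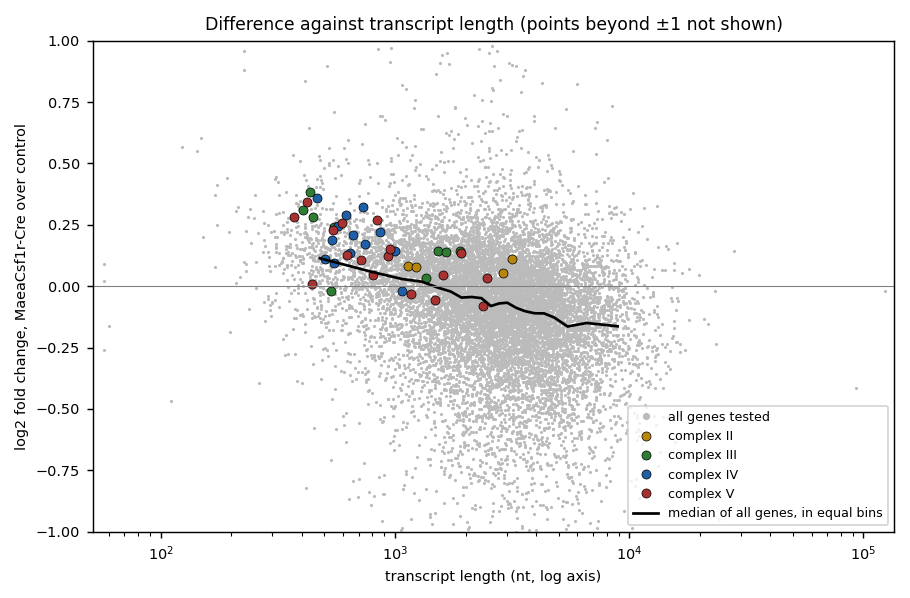
Log2 fold change, MaeaCsf1r-Cre over control, against transcript length in nt on a log axis, for the 12451 genes tested with a length (grey), with their median in bins of equal numbers of genes (black line) and the 43 members by complex; values beyond 1 in either direction are not drawn. The black line goes down from left to right, and most members lie at the short end and above it.

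Many members have short transcripts, and short transcripts differed from long ones across the whole table. Over the 12451 genes with a length, the log2 fold change ran against transcript length with a Spearman's rho of -0.30, across genes that share the 6 libraries, and over the 43 members rho was -0.56. The 27 members under 1000 nt had a median log2 fold change of 0.22 and the 16 longer ones 0.065. The median of the 1392 genes of the table under 1000 nt was 0.086. Of the short members 22 of 27 were higher in 3 of 3 pairs, against 34.3% of the short genes. With the block 13 of 27 had an unadjusted p under 0.05, all of them higher in MaeaCsf1r-Cre HSCs. Of the 1392 short genes 113 were higher with such a p, and 11.6% had it in either direction. After a correction for length the members' median was 0.14 and 38 of 43 were above 0, where the median of all genes was 0.032 and 56.2% were above 0. By complex the corrected medians were 0.13 for complex II, 0.20 for III, 0.14 for IV and 0.11 for V. With the correction and the block together, 3 of 43 members in place of 13 had an unadjusted p under 0.05. Of all genes 13.7% had such a p in either direction, and the members' share was then under it. The share of genes higher with such a p was not computed for this fit.

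Related genes were read from lists. Of 36 nuclear subunits of complex I all were tested, 35 were above 0, the median log2 fold change was 0.10 and 21 were higher in 3 of 3 pairs. Ndufb7, Ndufv1 and Ndufa9 had the smallest p, with log2 fold changes of 0.22, 0.24 and 0.22. Of 35 assembly factors of complexes II to V, 34 were tested, 19 were above 0, the median was 0.028 and 4 were higher in 3 of 3 pairs, led by Cmc2 (0.34), Ttc19 (-0.30) and Lyrm7 (0.30). Other proteins of the chain and the synthase, among them cytochrome c and the ATP/ADP carriers, gave 11 of 12 above 0 with a median of 0.11. Their smallest p belonged to Higd1a (0.23), the inhibitor of the synthase Atpif1 (0.32) and 2010107E04Rik (0.23). The regulators of mitochondrial gene expression gave 5 of 12 above 0 and a median of -0.086, with Polrmt at 0.22, Yy1 at -0.22 and Pprc1 at 0.21. In each of these lists 0 genes had an adjusted p under 0.05 from limma, with or without the block, and 0 an unadjusted p under 0.05, which with the block 4 genes of complex I, 1 assembly factor, 2 of the other proteins and 0 regulators had. The genes of these lists with such a p were all higher in MaeaCsf1r-Cre HSCs. With the block 13.9% of all genes had such a p in either direction, and 403 of the 12955 genes tested were higher with it. The counts are near or below the first share, while those of complex I and of the other proteins lie above the second.

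Subunit genes of the chain are known to share promoter sites for NRF1, for the ETS factor GABP and for YY1, and since the members deviated together between libraries their promoters were searched for these letters. A promoter from RefSeq (GRCm38.p6), from 250 bases before to 50 bases after the annotated start, was found for 33 of the 43 members, in 37 windows. On either strand the NRF1 letters GCATGCGC were in 7 of the 37 windows, against 5.32% of the windows of all genes tested and 2.71% of all windows. The ETS letters CCGGAAG were in 12, against 17.9% and 8.86%. The YY1 letters AAGATGGC were in 4, against 4.51% and 2.75%. Uqcr10 and Cox6b2 held no match in these windows. The 2 members that held a match and no annotated exon from 200 to 51 bases before the start are shown over those bases, both on the minus strand, with the match to the ETS letters or their reverse complement in capitals, at chr2:174464152-174464301 for Atp5e and chr10:80406872-80407021 for Uqcr11.
Atp5e: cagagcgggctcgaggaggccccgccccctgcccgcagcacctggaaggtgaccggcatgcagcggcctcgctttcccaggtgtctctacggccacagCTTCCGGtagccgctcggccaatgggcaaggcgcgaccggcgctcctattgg
Uqcr11: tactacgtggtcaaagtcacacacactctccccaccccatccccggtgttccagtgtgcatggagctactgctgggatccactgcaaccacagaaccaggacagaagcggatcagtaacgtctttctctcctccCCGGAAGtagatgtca
The match begins 102 bases before the start of Atp5e and 66 bases before that of Uqcr11. A match in these letters is a description and not a site shown to be bound.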

How the data were processed

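RNA of sorted HSCs was sequenced in 6 libraries. Per the labels and the methods, the authors used the SMART-Seq v4 and Nextera XT kits for the libraries, trimmed single-end reads with Trim Galore, aligned them to mm10 with STAR 2.5.3a and quantified and normalised them in Partek Flow against Ensembl; whether strand was used is not given in the sources used here. What they deposited is a table of CPM for each library, 0.0001 having been added throughout. Between 76.0 and 78.2% of low values lay within 0.1 of a whole read, so reads were not recovered and no count test was used; values of 6 members were whole (within 0.15) in 6 of 6 libraries.

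The 12955 genes that reached a CPM of 1 in 3 libraries or more were tested, on log2(CPM + 1), with limma 3.58.1 in R 4.3.3 (linear model, mean-variance trend, two-sided, Benjamini-Hochberg, threshold 0.05). Fold changes on this scale understate those of low genes. Nothing states that libraries of the same number share a litter or day, but deviations from the group means correlated across genes for the same number (Pearson's r of 0.627, 0.523 and 0.397 for replicates 1, 2 and 3) and not otherwise (-0.459 to -0.0538), so a fit with the replicate number as a block is given too. The test was checked on simulated data made from this table, with changes larger than any member's and with libraries that do not deviate together. That check does not cover differences of the size reported here. The members and lists were chosen with earlier results of these data known.

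Lengths, positions and overlaps come from GENCODE M21 (GRCm38), later than the authors' annotation; 44029 of 46959 rows and the 48 members found a gene. The length is that of the shortest principal transcript of the best support, chosen after the longest ones were seen to retain introns (the longest was planned). Length and GC were corrected with a loess curve per library (span 0.5). Values in every library are given for the 2 members with the smallest p and the highest per kb in each complex, those whose groups do not overlap, the 3 largest and 3 smallest log2 fold changes and the isoform families. Python 3.11.15, pandas 2.3.3, scipy 1.17.1 and matplotlib 3.10.9 were used. Protein sequences were not used here. RNA of other progenitors, which the methods mention, was not analysed here. The HSC marker list leaves out 1 gene that is not reported here.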

Additional observations from a re-analysis of the deposited data

How the results depend on the processing

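Among the alternatives, 0 members had an adjusted p under 0.05 in any of 20, and the members' median log2 fold change stayed above 0, from 0.018 to 0.26. These changed the pseudocount to 0.1, the filter to none or to a CPM of 10, or the scaling to median ratios or quantile normalization, added the replicate block, left out each library, dropped the trend or made length and GC corrections with and without the block; leaving out both libraries of a replicate number was chosen after seeing the data. The members with an unadjusted p under 0.05 were 13 of 43 with the replicate block, 3 with it and the length correction and 19 with it and the GC correction. Of all genes 13.9, 13.7 and 15.4% had such a p in either direction. Leaving out single libraries gave medians from 0.018 to 0.26 and 28 to 40 members above 0. By complex these medians ran from -0.0293 to 0.186 for complex II, 0.0209 to 0.303 for III, 0.0308 to 0.316 for IV and 0.019 to 0.2 for V.

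Of 474 recomputed log2 fold changes of named members 439 kept their direction, 35 were reversed and 0 crossed the threshold. Atp5c1 was at 0.019 with median ratios and 0.064 with the GC correction, with and without the replicate block. Cox7a2l was at 0.031 with median ratios, 0.0092 with quantile normalization and 0.058 with the GC correction, Atp5s at 0.040 with quantile normalization and 0.12 with the GC correction, Atp5sl at 0.019 with quantile normalization and 0.010 with the length correction, and Atp5g2 at -0.078 with the length correction, the block leaving these values as they were. With libraries left out the range was -0.15 to 0.082 for Atp5c1, -0.082 to 0.096 for Atp5g2, -0.044 to 0.25 for Atp5g3, -0.20 to 0.11 for Atp5s, -0.20 to 0.032 for Atp5sl, -0.11 to 0.037 for Cox7a2l, -0.035 to 0.29 for Cox7b, -0.037 to 0.19 for Sdhb and -0.075 to 0.24 for Sdhd. Without replicate 1 of both groups Atp5sl was at 0.000127 and Atp5g2 at -0.066, and without replicate 2 of both groups Atp5s was at 0.099 and Cox7a2l at 0.044. The cause was not tested.

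The genes called over the whole table were 1 in the fit reported and with the replicate block, 0 with the filter at a CPM of 10 (302 at an unadjusted p under 0.05), 13 with the length correction and the replicate block, and 12 with the GC correction and the replicate block; leaving out libraries gave 0 to 1, and leaving out a replicate number of both groups 0. The per-kb medians of the complexes in control moved with transcript length, from 93.2 to 144.0 CPM per kb for complex V. Several members overlap another gene, for example Atp5f1 with Wdr77, Atp5j with Gabpa and Cox4i1 with Gm20388, and their reads cannot be told apart without strand.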
